A study of Mus musculus with 4 samples.

Results

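The Myc locus and its distal landscape were described from open-chromatin peaks. The members were all ATAC-seq peaks on mouse chromosome 15 whose midpoint lay inside Myc (mm10, 61985341-61990361, 5021 bp) or within 1000000 bp of either end of the gene. This gave 1089 of the 1705856 peaks in 4 libraries: 367 in Sod2-/- cells, 290 in Sod2+/+ control cells, 217 in rotenone-treated cells and 215 in vehicle-treated cells. The locus was chosen by measured values, the rank of its peaks by −log10 p in these same libraries, for its many gains and losses in rotenone-treated cells and its losses in Sod2-/- cells. The counts of gains and losses below are therefore a description and support nothing.

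All 4 libraries came from dermal fibroblasts of C57BL/6 mice, labelled 100 days, with 1 library per group. The first comparison set a conditional Sod2 knockout (Sod2-/-), which lacks the mitochondrial manganese superoxide dismutase, against Sod2+/+ control fibroblasts. The second set rotenone-treated Sod2+/+ fibroblasts (labelled dose 250 µM) against Sod2+/+ fibroblasts given vehicle; rotenone blocks complex I of the respiratory chain. The part of Sod2 that was removed, the promoter that drove the recombinase, the time in rotenone, what the days count and whether animals were pooled are not stated in the labels. ATAC-seq uses the Tn5 transposase to cut and tag accessible DNA, so a peak marks DNA that was open in many of the cells.

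Myc encodes a basic helix-loop-helix leucine zipper transcription factor that drives growth, ribosome production and entry into the cell cycle. It binds DNA as a dimer with MAX, preferentially at the E-box CACGTG, and MAX also pairs with the MXD proteins and MNT, which oppose MYC. The gene lies in a gene-poor stretch, and in mouse and human its transcription is known to depend on enhancers spread over very long distances, different ones in different tissues. The long noncoding RNA gene Pvt1 is its neighbour, and enhancers inside Pvt1 are known to act on Myc in several cell types. In the mouse genome Myc and Pvt1 are both read towards higher coordinates, so the lower-coordinate end of Myc is its start.

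Each peak has a fold enrichment over the local background, a −log10 p and a width, all given by the authors' peak caller for that list alone. The 30000 peaks with the highest −log10 p in a list are called strong here. A strong peak of Sod2-/- or rotenone cells was counted as gained, and a strong peak of control or vehicle cells as lost, when it did not overlap any of the 60000 highest ranked peaks of the partner library by 1 bp. With 1 library per group no test of a difference is possible, read depth is unknown, and intervals on shares cover counting error only. Over the whole genome, strong peaks were weaker in Sod2-/- cells (median fold 5.49) than in control cells (6.78), and weaker in rotenone (5.99) than in vehicle (7.13). The part of this general difference in the values at Myc was not tested. Distances below are in kb from the lower-coordinate end of Myc to the middle of a region, "above" meaning towards higher coordinates.

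The window held about as many strong peaks in each library: 20 in Sod2-/- cells, 21 in control, 20 in rotenone and 19 in vehicle. Windows of the same reach round 21887 protein-coding genes had a median of 33 strong peaks in Sod2-/- cells, 32 in control, 33 in rotenone and 33 in vehicle. The Myc window lay below the lower quartile of 24 in Sod2-/- cells and 23 in control, so it is sparse in strong peaks. Merging strong peaks of the 4 libraries where they overlapped gave 33 regions. Of these, 11 were strong in all 4 libraries, 2 in 3 libraries, 10 in 2 and 10 in only 1. Regions strong in all 4 made up 33.3% at Myc and 46.1% of 42457 in the genome. Every one of the 33 regions carried a peak of some rank in every library.

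**Figure D1:**
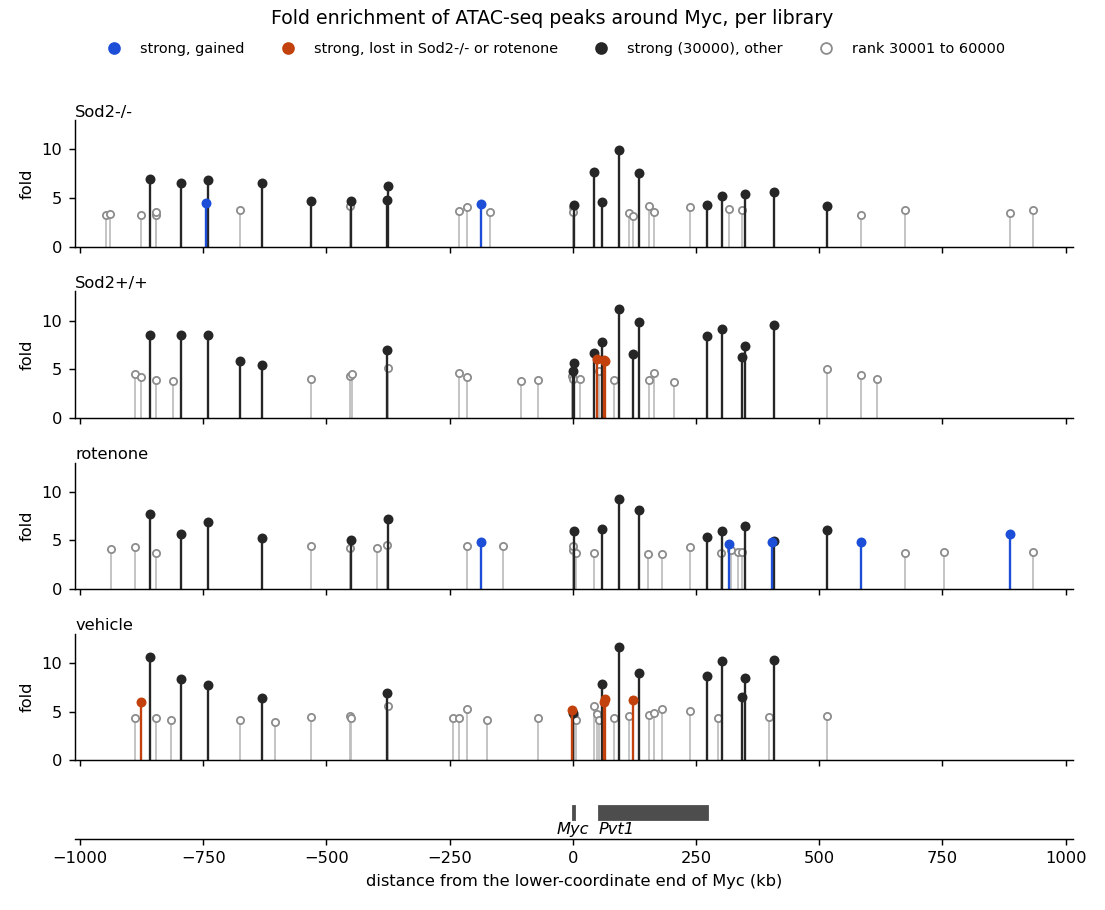
Fold enrichment over local background (y axis) of the peaks among the 60000 strongest of each library, against distance in kb from the lower-coordinate end of Myc (x axis). Filled points are among the 30000 strongest, blue ones gained in Sod2-/- or rotenone cells and orange ones lost from them. The lost peaks stand mostly around the start of Pvt1, while 4 of the 5 rotenone gains lie beyond its far end.

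At Myc itself the open chromatin was modest in every library. Inside the gene and 1.81 kb above its start, the region at 61986991-61987307 had a fold of 4.28 in Sod2-/- cells, 5.65 in control, 5.95 in rotenone and 4.56 in vehicle. It was strong in all but vehicle, where its rank of 30303 lay just outside the 30000. The region over the start of the gene, 61985429-61985675, had a fold of 3.53 in Sod2-/- cells, 4.78 in control, 4.42 in rotenone and 4.91 in vehicle. It was strong in control and vehicle and lay lower in the lists of Sod2-/- cells (rank 45194) and rotenone (rank 31963), in all 4 libraries inside the 60000. Right before the gene, centred 203 to 250 bp below it, a further peak had a fold of 4.07 in Sod2-/- cells, 3.95 in control, 4.00 in rotenone and 3.48 in vehicle. It was strong in no library, with ranks of 30999 in Sod2-/- cells, 38858 in control, 40139 in rotenone and 60523 in vehicle.

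The promoter-proximal region that differed most between libraries lay 0.92 kb below the start of Myc, at 61984232-61984600. Its fold was 2.81 in Sod2-/- cells and 4.31 in control. In rotenone it was 2.74, against 5.16 in vehicle. It was counted as lost in rotenone, where its best peak ranked 167938. It was also lower in Sod2-/- cells, but the control peak ranked 33827 and was not strong, so no loss could be counted there. The remaining peaks within 5000 bp of Myc were weak: the best of them, about 1 kb beyond the gene's far end, had a fold of 3.14 in Sod2-/- cells, 3.45 in control, 3.67 in rotenone and 4.19 in vehicle.

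By rank averaged over the 4 libraries, the most open sites of the locus were not at Myc but inside Pvt1 and far below Myc. The order differed between single libraries: in Sod2-/- cells the second-best region was the one at 62028405-62028759 between Myc and Pvt1 (rank 6710), and a region beyond Pvt1, 62392431-62392793, ranked 6675 in vehicle and 6896 in control, in control ahead of every region below Myc. The region with the best mean rank, 62079241-62079958, lay inside Pvt1 (62037986-62260215), 94.3 kb above the start of Myc. Its fold was 9.98 in Sod2-/- cells, 11.2 in control, 9.27 in rotenone and 11.6 in vehicle. The next, 62118846-62119453, also inside Pvt1 and 134 kb above, had a fold of 7.59 in Sod2-/- cells, 9.88 in control, 8.08 in rotenone and 9.01 in vehicle. Both were strong in all 4 libraries, with the lower fold in the Sod2-/- and rotenone libraries each time.

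The other 3 of the 5 best ranked constant regions lay 858, 796 and 741 kb below Myc, between annotated genes. The one at 61127230-61127607 had a fold of 6.92 in Sod2-/- cells, 8.47 in control, 7.74 in rotenone and 10.6 in vehicle. The one at 61189299-61190258 had 6.55 in Sod2-/- cells, 8.57 in control, 5.67 in rotenone and 8.38 in vehicle. Merged over the libraries it was the widest of the 33 regions, though its best peak spanned 426 bp in Sod2-/- cells, 932 bp in control, 361 bp in rotenone and 839 bp in vehicle. The third, at 61244488-61244858, had 6.84 in Sod2-/- cells, 8.48 in control, 6.95 in rotenone and 7.69 in vehicle. Over all 11 regions strong in every library the median fold was 6.51 in Sod2-/- cells, 8.48 in control, 6.18 in rotenone and 8.65 in vehicle.

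**Figure D2:**
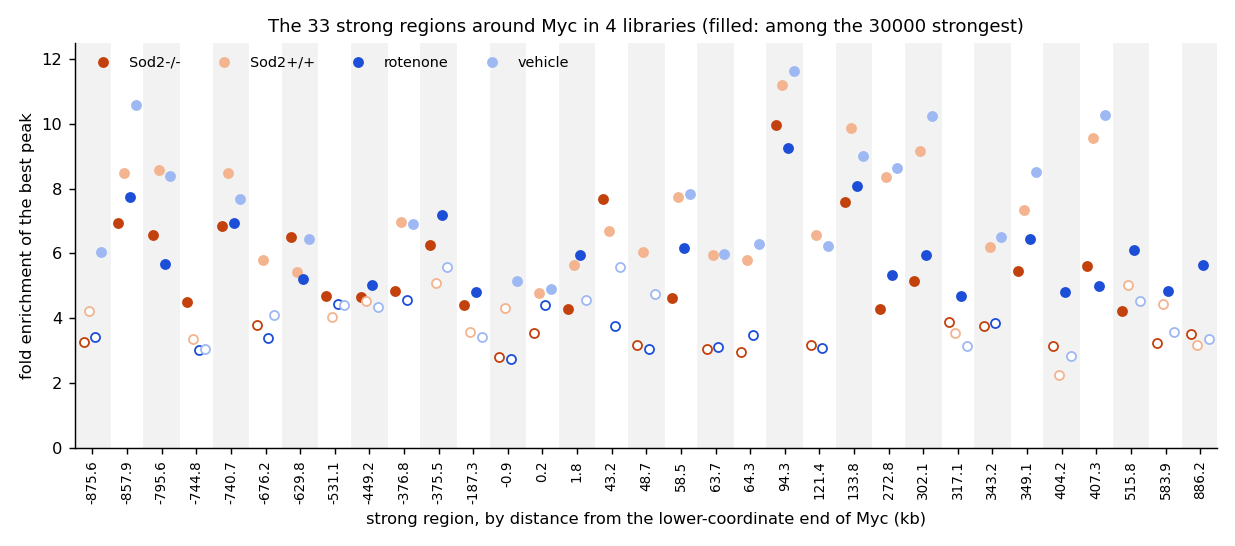
Fold enrichment of the best peak in each of the 33 strong regions (x axis, ordered by distance in kb from the lower-coordinate end of Myc; spacing is not to scale) in Sod2-/-, Sod2+/+, rotenone and vehicle libraries. Filled points are among the 30000 strongest peaks of that library and open points are not. The Sod2-/- and rotenone points lie below the Sod2+/+ and vehicle points at most regions from 48.7 to 407 kb.

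In Sod2-/- cells, 3 strong control peaks were lost and 2 strong peaks gained. The losses were 3 of 21 strong control peaks, 14.3% (95% Wilson interval 4.98-34.6), where 6.76% of strong control peaks were lost over the genome. The gains were 2 of 20 strong Sod2-/- peaks, 10.0% (2.79-30.1), against 5.33% over the genome. Both intervals hold the genome's share, but this is no test. The locus was chosen partly for its losses in these cells, and the intervals treat neighbouring peaks as independent.

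All 3 losses in Sod2-/- cells lay close together around the start of Pvt1. The first, at 62033890-62034136, lay 48.7 kb above the start of Myc, just before Pvt1. Its fold was 3.17 in Sod2-/- cells and 6.03 in control, and the Sod2-/- rank of 60203 was only just outside the 60000. The other 2 lay side by side inside Pvt1 with 367 bp between them. At 62048922-62049095 the fold was 3.06 in Sod2-/- cells and 5.95 in control. At 62049463-62049820 it was 2.95 in Sod2-/- cells and 5.80 in control. A region further inside Pvt1, at 62106624-62106911, differed as much, with a fold of 3.18 in Sod2-/- cells and 6.57 in control. Its Sod2-/- rank of 58070 was just inside the 60000, so it was not counted.

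The 2 gains in Sod2-/- cells lay below Myc. The one at 61797854-61798225, 187 kb below, had a fold of 4.40 in Sod2-/- cells and 3.59 in control. The other, at 61240482-61240596 and 745 kb below, had a fold of 4.51 in Sod2-/- cells and 3.37 in control. Both fold differences were smaller than those of the 3 losses, and the second peak was only 115 bp wide. These differences make no allowance for the lower folds of Sod2-/- cells over the genome (median log2 ratio -0.27). The strongest site near Myc that was higher in Sod2-/- cells without being counted lay between Myc and Pvt1 at 62028405-62028759, 43.2 kb above, with a fold of 7.68 in Sod2-/- cells and 6.68 in control. The same site had a fold of 3.75 in rotenone and 5.58 in vehicle, so the 2 comparisons went opposite ways there; this difference was not tested.

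In rotenone cells, 5 strong vehicle peaks were lost and 5 strong peaks gained. The losses were 5 of 19 strong vehicle peaks, 26.3% (95% Wilson interval 11.8-48.8), against 8.04% over the genome. The gains were 5 of 20 strong rotenone peaks, 25% (11.2-46.9), against 6.81% over the genome. These shares stand above the genome's, as the choice of the locus for its many changes in rotenone already fixed. Windows of the same reach round all protein-coding genes had a median of 2 gains and 2 losses in rotenone, with an upper quartile of 3 for both. In Sod2-/- cells those medians were 1 gain and 2 losses, with upper quartiles of 2 and 3.

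Of the 5 losses in rotenone, 1 was the region just before Myc described above and 3 lay inside Pvt1. At 62048922-62049095 the fold was 3.11 in rotenone and 5.99 in vehicle. At its close neighbour 62049463-62049820 it was 3.49 in rotenone and 6.28 in vehicle, the rotenone rank of 63457 being near the limit of 60000. At 62106624-62106911 it was 3.10 in rotenone and 6.22 in vehicle. These 3 sites had nearly equal folds in the control and vehicle libraries and were low in both the rotenone and Sod2-/- libraries. The remaining loss, at 61109644-61109816 and 876 kb below Myc, had a fold of 3.44 in rotenone and 6.03 in vehicle. There the control library was also low, at 4.24 with Sod2-/- at 3.28, so only vehicle was strong.

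Of the 5 gains in rotenone, 4 lay beyond the far end of Pvt1 and 1 below Myc. The strongest, at 62871532-62871643, was 886 kb above Myc and 112 bp wide, with a fold of 5.65 in rotenone and 3.35 in vehicle. The region at 62569201-62569369, 584 kb above, had 4.85 in rotenone and 3.59 in vehicle. There the control library was also high, at 4.43 with a rank of 43037, inside the 60000. At 62389502-62389658, 404 kb above, the fold was 4.82 in rotenone and 2.85 in vehicle. That one stood out most by rank, with the vehicle peak at 158092 and the control peak at 297151. At 62302267-62302533, 317 kb above, it was 4.68 in rotenone and 3.16 in vehicle. The gain below Myc was the site gained in Sod2-/- cells too, 61797854-61798225, with a fold of 4.80 in rotenone and 3.41 in vehicle. All 4 gains beyond Pvt1 were strong in rotenone alone, with folds in Sod2-/- cells of 3.50 at 886 kb, 3.23 at 584 kb, 3.15 at 404 kb and 3.88 at 317 kb.

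No peak at the locus was gained or lost outright. Requiring that the partner library had no peak of any strength gave 0 gains and 0 losses in either comparison, of 20 and 21 strong peaks in the Sod2-/- comparison and of 20 and 19 in the rotenone comparison (Wilson upper bounds 16.1%, 15.5%, 16.1% and 16.8%). Over the genome this stricter rule called 0.243% of strong peaks gained and 0.343% lost in Sod2-/- cells, and 0.773% gained and 0.943% lost in rotenone cells.

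The vehicle and control libraries, which differ in neither Sod2 nor rotenone, had 0 of 19 strong vehicle peaks missing from control and 0 of 21 strong control peaks missing from vehicle at the locus. Over the genome 1.03% of strong vehicle peaks and 0.847% of strong control peaks were so called. The enrichment of these libraries was alike over the genome, with median strong folds of 7.13 in vehicle and 6.78 in control. By direct overlap of strong peaks, 16 of 20 Sod2-/- peaks at Myc met a strong rotenone peak and 14 of 20 a strong control peak. Of 20 rotenone peaks, 16 met a strong Sod2-/- peak and 11 a strong vehicle peak. Of 19 vehicle peaks, 17 met a strong control peak. The corresponding shares over the genome were 82.5% and 77.2% for Sod2-/- peaks, 82.0% and 75.6% for rotenone peaks and 85.9% for vehicle peaks.

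**Figure D3:**
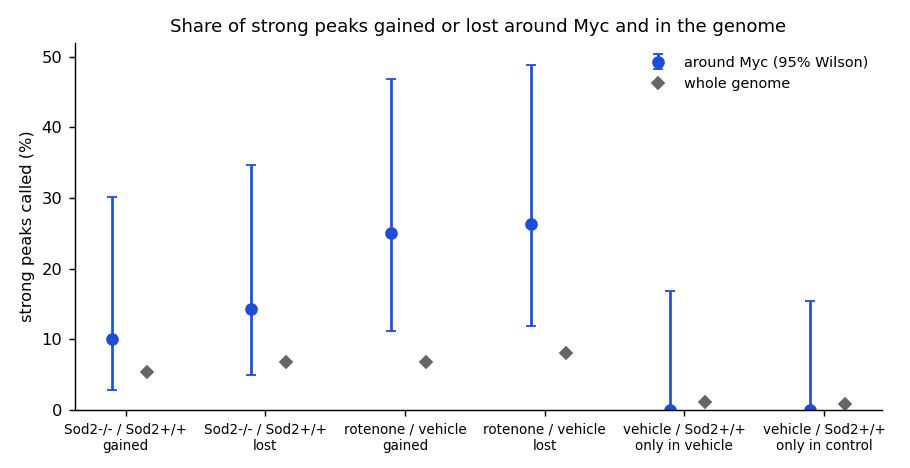
Percentage of strong peaks that were gained, lost or present in 1 library only (y axis), around Myc (blue, with 95% Wilson intervals for counting error) and over the whole genome (grey). Around Myc the rotenone shares are 25% gained and 26.3% lost and the Sod2-/- shares 10.0% and 14.3%, against 5.33% to 8.04% in the genome; the locus was chosen for these changes.

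The comparisons of Sod2-/- with control and of rotenone with vehicle share no library. Of the 3 regions lost in Sod2-/- cells, 2 were also lost in rotenone (66.7% of the Sod2-/- losses and 40.0% of the rotenone losses), namely the neighbouring pair inside Pvt1. Of the 2 regions gained in Sod2-/- cells, 1 was gained in rotenone too (50% of the Sod2-/- gains and 20.0% of the rotenone gains), the site 187 kb below Myc. Over the genome 27.4% of Sod2-/- losses and 23.0% of rotenone losses were shared, and 21.6% of Sod2-/- gains and 16.9% of rotenone gains. In all, 5 of the 33 regions were strong in control and vehicle but in neither Sod2-/- nor rotenone cells, and 4 were strong in Sod2-/- and rotenone cells but in neither control nor vehicle. Over the genome these kinds numbered 3191 and 2622 of 42457 regions.

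The fold enrichment was lower in both Sod2-/- and rotenone cells over a long stretch that covers Pvt1 and the land behind it. Of the 14 regions between 48.7 and 407 kb above the start of Myc, 12 had a lower fold in Sod2-/- than in control cells, with a median log2 ratio of -0.76. In the same 14 regions, 12 had a lower fold in rotenone than in vehicle, with a median log2 ratio of -0.67. Most strong regions of the genome were lower too, 75.4% in Sod2-/- than in control cells and 71.2% in rotenone than in vehicle. The median over all 33 regions was -0.39 for Sod2-/- over control and -0.33 for rotenone over vehicle, and over the strong regions of the genome it was -0.27 and -0.22. Of the 14 regions, 6 were counted as gained or lost in at least 1 comparison, so these values rest partly on the calls for which the locus was chosen. The other 8 were all lower in Sod2-/- than in control cells and in rotenone than in vehicle. Their median log2 ratio was -0.73 for Sod2-/- over control and -0.55 for rotenone over vehicle. The regions not lower, 62302267-62302533 and 62389502-62389658, were rotenone gains and so among the 6 left out. That all 8 were lower follows from this exclusion and is no separate check. The limits of this stretch were set after the values were seen.

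Regions in that stretch that stayed strong in all 4 libraries showed the same order, by differing amounts. At the best ranked, 62079241-62079958, the log2 ratio was only -0.17 for Sod2-/- over control and -0.33 for rotenone over vehicle. At 62118846-62119453 these ratios were -0.38 and -0.16. The differences were larger at the regions that follow. At 62258031-62258244, inside Pvt1 and close to its far end, the fold was 4.27 in Sod2-/- cells and 8.37 in control, and 5.34 in rotenone and 8.65 in vehicle. At 62287120-62287708, 27199 bp beyond Pvt1, it was 5.16 in Sod2-/- cells and 9.14 in control, and 5.94 in rotenone and 10.2 in vehicle. At 62392431-62392793, 407 kb above Myc, it was 5.62 in Sod2-/- cells and 9.56 in control, and 4.99 in rotenone and 10.3 in vehicle. In each of these, the Sod2-/- and rotenone values lay below both the control and the vehicle value. The last stands only 2772 bp from the rotenone gain at 62389502-62389658, where the order was the opposite.

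Further regions of the stretch that were neither gained nor lost had the same order, with lower folds in Sod2-/- than in control cells and in rotenone than in vehicle. At 62043634-62044075, 58.5 kb above Myc and inside Pvt1, the fold was 4.62 in Sod2-/- cells and 7.75 in control, and 6.18 in rotenone and 7.84 in vehicle. At 62328317-62328869, 343 kb above, it was 3.77 in Sod2-/- cells and 6.21 in control, and 3.86 in rotenone and 6.50 in vehicle. At 62334267-62334638, 349 kb above, it was 5.46 in Sod2-/- cells and 7.35 in control, and 6.46 in rotenone and 8.51 in vehicle. The middle one was strong in control and vehicle only, though both of its lower values still ranked inside the 60000, so it was not counted as lost.

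Below Myc the picture was mixed. Of the 13 regions there, 7 had a lower fold in Sod2-/- than in control cells (median log2 ratio -0.29), where 75.4% did over the genome. A lower fold in rotenone than in vehicle was found in 9 of them (median -0.27), where 71.2% had it over the genome. Both medians were near those of the genome. A close pair of regions about 376 kb below Myc went opposite ways. At 61608362-61608766 the fold was 4.84 in Sod2-/- cells and 6.96 in control, and 4.56 in rotenone and 6.90 in vehicle. At 61609608-61609995, only 841 bp further on, it was 6.26 in Sod2-/- cells and 5.09 in control, and 7.20 in rotenone and 5.59 in vehicle. Neither was counted as gained or lost, since all 4 libraries had a peak among the 60000 strongest at both.

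Other regions higher in Sod2-/- cells lay 630 kb below Myc, at 61355368-61355754, with a fold of 6.51 in Sod2-/- cells and 5.43 in control, and 531 kb below, at 61454004-61454374, with 4.68 in Sod2-/- cells and 4.04 in control. In the rotenone comparison the first was lower, 5.21 in rotenone against 6.44 in vehicle, and the second nearly equal, 4.44 in rotenone against 4.41 in vehicle. Above Pvt1, at 62500997-62501269, the fold was 6.10 in rotenone and 4.52 in vehicle, and 4.21 in Sod2-/- cells and 5.03 in control. Across the 33 regions the 2 log2 ratios had a Pearson correlation of 0.72 and a Spearman correlation of 0.74, against 0.62 for both over 41476 regions of the genome. All regions were chosen for a strong peak in at least 1 of the 4 libraries, and each library enters at every point, so this is a description.

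**Figure D4:**
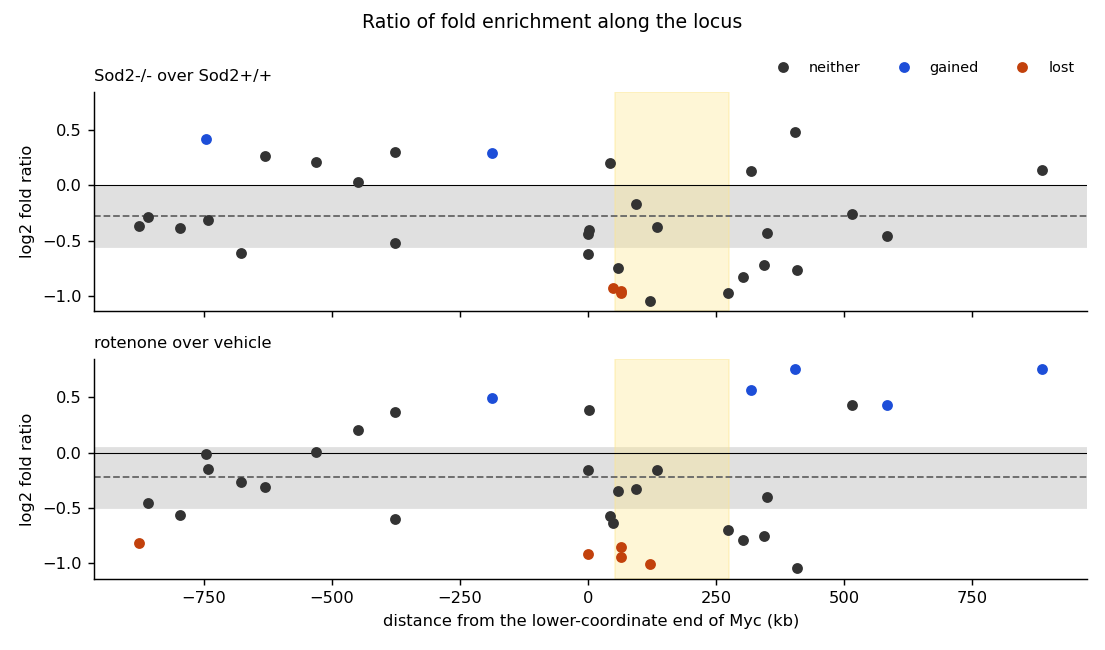
Log2 ratio of fold enrichment, Sod2-/- over Sod2+/+ (top) and rotenone over vehicle (bottom), for the 33 strong regions against distance in kb from the lower-coordinate end of Myc. The dashed line and grey band are the median and quartiles over strong regions of the genome, and the yellow band is Pvt1. From 48.7 to 407 kb, 12 of 14 points lie below 0 in each panel. Over the genome 75.4% (top) and 71.2% (bottom) of strong regions do.

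Apart from Myc and Pvt1, the annotated genes in the window had little open chromatin. The RefSeq table lists 13 genes there: Myc as the only protein-coding one, 6 long noncoding RNA genes, 4 pseudogenes and 2 small nucleolar RNA genes. Strong regions lay inside Pvt1 (7), Myc (2) and the noncoding gene Gm29904 (1), and 23 lay between genes. The region in Gm29904, 61309002-61309291, was strong only in control, with a fold of 5.80 there, 3.79 in Sod2-/- cells, 3.41 in rotenone and 4.10 in vehicle. The ends of Pvt1 carried no strong peak in any library; the best fold within 1000 bp of either end was 2.99 in Sod2-/- cells, 4.84 in control, 2.72 in rotenone and 4.15 in vehicle. Promoter sequences were at hand for 5 of the noncoding genes in the window, in 6 entries, and 0 of the 6 were overlapped by a peak of any rank in any library.

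Genes whose proteins pair with or oppose MYC were examined on their own loci, inside the gene or within 1000 bp. Of 13 such genes, 8 had a strong peak within 1000 bp of a gene end in Sod2-/- cells, 10 in control, 8 in rotenone and 8 in vehicle. In Sod2-/- cells 4 of 19 strong control peaks at these genes were lost and 0 of 16 gained, against the genome's 6.76% and 5.33%. With vehicle in place of control as the partner of Sod2-/- cells 2 were lost, with lists of 60000 peaks 2, with lists of 15000 peaks 0, and with partner peaks of any strength 0. In rotenone cells 1 of 15 strong vehicle peaks was lost and 0 of 14 gained, where 8.04% were lost and 6.81% gained over the genome.

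Max, the gene of the obligate partner of MYC, had the peak with the highest fold of the group in every library, over its promoter. Its fold was 14.9 in Sod2-/- cells, 17.3 in control, 14.7 in rotenone and 17.1 in vehicle. Mxd1 and Mxd4, which encode repressors that compete with MYC for MAX, also had a strong peak at a gene end in all 4 libraries. Mxd1 had a fold of 8.90 in Sod2-/- cells, 12.3 in control, 11.0 in rotenone and 12.2 in vehicle, and Mxd4 had 10.3 in Sod2-/- cells, 11.5 in control, 9.57 in rotenone and 11.8 in vehicle. The 4 losses in Sod2-/- cells fell to Mlx, Mycn, Mga and Mxd3, where the Sod2-/- peaks ranked 99834, 67261, 70704 and 76698. At Mlx, which encodes a MAX-like protein, the peak over its start (chromosome 11, 101087144-101087322) had a fold of 2.74 in Sod2-/- cells and 5.59 in control. At Mycn, the gene of the neural paralog of MYC, the peak at chromosome 12, 12942378-12942825 had 3.08 in Sod2-/- cells and 5.92 in control. At Mga, whose product binds MAX and represses, the peak at chromosome 2, 119898328-119898589 had 2.98 in Sod2-/- cells and 5.68 in control. The same Mga site was the 1 loss in rotenone, with 3.43 in rotenone (rank 65837) and 7.42 in vehicle. The peak lost near Mxd3, at chromosome 13, 55324832-55324897, lay beyond the gene end opposite its promoter. Its fold was 2.94 in Sod2-/- cells and 5.47 in control. Mxd3 encodes another MAX-binding repressor. The lost Mga peak also lay outside the listed promoter. At both genes the promoter itself had a peak that was strong in Sod2-/- cells only. At Mga its fold was 4.27 in Sod2-/- cells (rank 28577) and 4.53 in control (rank 39051). At Mxd3 it was 4.23 in Sod2-/- cells (rank 28621) and 4.48 in control (rank 42122).

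The promoters of Max and Mlx are shown because the first lay under the highest peak of the group and the second lost its start peak in Sod2-/- cells, and both hold the E-box that MYC and MAX bind. Sequences are from RefSeq (GRCm38.p6, the assembly behind mm10), 5′ to 3′ on the gene's strand, from 250 bases before to 50 after the start, with the E-box in capitals. Max is on the minus strand at chromosome 12, 76962199-76962498, and Mlx on the plus strand at chromosome 11, 101087040-101087339.
Max: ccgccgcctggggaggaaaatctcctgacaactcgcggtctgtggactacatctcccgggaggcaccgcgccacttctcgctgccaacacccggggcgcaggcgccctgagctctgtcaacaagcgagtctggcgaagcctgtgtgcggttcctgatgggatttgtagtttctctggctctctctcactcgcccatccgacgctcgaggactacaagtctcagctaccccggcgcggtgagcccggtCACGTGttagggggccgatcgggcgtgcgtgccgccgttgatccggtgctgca
Mlx: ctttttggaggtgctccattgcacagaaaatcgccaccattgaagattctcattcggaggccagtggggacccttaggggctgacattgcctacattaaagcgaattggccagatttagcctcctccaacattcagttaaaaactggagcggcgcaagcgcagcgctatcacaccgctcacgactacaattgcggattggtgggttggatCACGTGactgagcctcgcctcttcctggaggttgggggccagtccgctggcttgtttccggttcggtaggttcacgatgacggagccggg
The E-box of Mlx, at 101087250-101087255, lies inside the peak that was lost in Sod2-/- cells. The letters CACGTG, which read the same on both strands, occur in 5 of the 17 promoters listed for the 13 genes (29.4%; 1 each of Max, Mlx, Mnt, Mxd4 and Mlxipl) and in 7.15% of all 32851 promoters of this length. The AP-1 motif TGANTCA was in 0 of the 17 promoters and 7.81% of all, and GGAATG, the TEAD motif, on either strand in 0 of the 17 and 14.7% of all. A match is only a match of letters.

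Among 20 well-known target genes of MYC, those with a strong peak at a gene end numbered 15 in Sod2-/- cells, 14 in control, 16 in rotenone and 14 in vehicle. In Sod2-/- cells 1 of 22 strong peaks was gained and 0 of 20 control peaks lost, where 5.33% were gained and 6.76% lost over the genome. The gain lay just beyond the higher-coordinate end of Ccnd2, the gene of cyclin D2 (chromosome 6, 127152545-127152633). The fold there was 5.13 in Sod2-/- cells and 3.33 in control. In rotenone 1 of 21 strong peaks was gained, over the lower-coordinate end of Tfrc, the transferrin receptor gene. The fold there was 5.26 in rotenone and 3.91 in vehicle. The 1 of 22 vehicle peaks lost lay inside Eno1, the enolase gene, at chromosome 4, 150237729-150237812, with a fold of 5.78 in vehicle and no peak in rotenone. Over the genome 6.81% were gained and 8.04% lost in rotenone, so counts of 0 or 1 in lists of this size are near the background. Nop56, a gene of ribosomal RNA processing, had folds of 10.6 in Sod2-/- cells, 8.22 in control, 16.7 in rotenone and 11.1 in vehicle at its gene end. It had no gained or lost peak, and other targets went the opposite way. Cad had 4.34 in Sod2-/- cells, 5.71 in control, 5.88 in rotenone and 8.12 in vehicle. Polr1b had 10.1 in Sod2-/- cells, 14.6 in control, 11.2 in rotenone and 15.2 in vehicle.

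Peaks at marker genes did not single out fibroblasts. Of 10 fibroblast genes, 1 had a strong peak at a gene end in Sod2-/- cells (Col1a2), 2 in control (Col1a2 and Pdgfrb), 1 in rotenone and 2 in vehicle. A gene end peak of any strength was found at 9 of them in Sod2-/- cells, 9 in control, 10 in rotenone and 9 in vehicle. Of the 4 keratinocyte genes 2 had a strong one in every library (Krt14 and Krt10), and of the 4 endothelial genes 1 (Tek). Of the 4 melanocyte and Schwann cell genes, 2 had one in Sod2-/- cells, 1 in control, 2 in rotenone and 2 in vehicle, of the 4 muscle genes 0 in Sod2-/- cells and 1 in each other library, and of the 4 leukocyte and 4 adipocyte genes 0. An open gene end does not show transcription, and the makeup of the cultures was not tested.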

How the data were processed

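Peak lists of 4 ATAC-seq libraries were used. Per the submitters' processing notes, Bowtie2, bedtools, MACS2, HOMER and the mouse build mm10 were involved; their versions and settings, and any Tn5 shift of reads, are not given. The authors deposited 1 peak list per library, called separately and without a header. The deposited columns were taken to follow the MACS2 broad-peak format, with positions, fold enrichment (a ratio to local background), −log10 p, −log10 q (lowest just above 1, a q of 0.1) and an unused score. Lists held 585165 (Sod2-/-), 433013 (control), 347438 (rotenone) and 340240 (vehicle) peaks. Positions were made 1-based. Peaks were ranked by −log10 p, ties by fold. Gene positions came from RefSeq GRCm38.p6, without strand or exons. The caller's values belong to each list; ratios between lists are set beside their genome-wide medians. Overlap counting was checked on copies of the control and vehicle lists from which peaks had been removed and to which peaks had been added. Named were every region gained or lost, strong peaks within 5000 bp of Myc, the 5 best ranked constant regions, window genes and listed MYC genes; further regions were picked after their values were seen. The locus, rules and lists were chosen with earlier results of these data known. Scripts ran in Python 3.11.15 with scipy 1.17.1, numpy 2.4.6 and pandas 2.3.3, and figures were drawn with matplotlib 3.10.9. Alternatives were other list lengths, ranking, overlap, partner lists and window; the other Sod2+/+ library as partner was added after seeing the data.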

Additional observations from a re-analysis of the deposited data

How the results depend on the processing

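All 15 gains and losses at Myc rest on a rank limit, and list length changed which were called. The best partner peaks ranked from 60203 to 167938, so some lay close to the limit of 60000 and others far from it. With lists of 15000 against 30000, 1 of 9 strong peaks was gained and 0 of 9 lost in Sod2-/- cells. In rotenone 2 of 8 were gained and 0 of 10 lost. That 0 of the 15 calls were kept was fixed in advance. The best ranked of these peaks stood at 18712 in its list, outside the 15000. The genome's shares at this setting were 4.9%, 5.58%, 5.52% and 6.09% in the same order. With lists of 60000 against 120000, 4 of 43 strong peaks were gained and 4 of 44 lost in Sod2-/- cells. In rotenone 6 of 43 were gained and 9 of 47 lost. The genome's shares rose as well, to 12.1%, 14.0%, 15.6% and 16.5% in the same order. At this setting 4 peaks only in vehicle and 2 only in control appeared too, and 2 of the 15 calls were kept. With partner peaks of any strength, or a partner list of 340240, all 4 counts of gains and losses were 0. The first result restates that every region carried a peak of some rank in every library. A window of 500000 bp gave 1 gain in Sod2-/- cells and 3 in rotenone. Ranking by fold kept 13 of the 15 calls, 50% coverage 15, and exchanging control and vehicle as partners 11. No count moved by more than 1 under these. With 50% coverage, 13.2% of strong peaks were lost over the genome in Sod2-/- cells and 14.7% in rotenone. The first loss before Pvt1 in Sod2-/- cells was kept under 1 of 7 alternatives, the other calls under 2 to 4. At the MYC network genes, with 4 losses in Sod2-/- cells and 1 in rotenone, lists of 15000 gave 0 losses in Sod2-/- cells, lists of 60000 gave 2 losses in Sod2-/- cells, 1 gain and 2 losses in rotenone, partner peaks of any strength and the shortest partner length 0 losses in both, 50% coverage 6 losses in Sod2-/- cells and 2 in rotenone, and exchanged partners 2 losses in Sod2-/- cells. At the 20 targets, no alternative gave more than 4 calls of a kind: lists of 60000 gave 3 losses in Sod2-/- cells and 4 in rotenone, 50% coverage 2 losses in Sod2-/- cells and 2 gains and 3 losses in rotenone, exchanged partners 1 loss in Sod2-/- cells, and the other moved counts were 0. Depth is unknown. No paired analysis was possible because each group has 1 library. No replicate could be left out for the same reason.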

Other observations

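From 1 to 2 Mb on either side of Myc, outside the window above, each library had 7 to 12 strong peaks, so the counts are small. In Sod2-/- cells, 2 of 7 strong peaks on the low side and 1 of 5 on the high side were gained, 3 of 12 in all where 5.33% were gained over the genome, and 0 of 2 and 0 of 7 strong control peaks were lost (6.76% over the genome). In rotenone, 1 of 6 strong peaks on the low side and 0 of 3 on the high side were gained (6.81% over the genome), and 0 of 3 and 0 of 4 strong vehicle peaks were lost (8.04% over the genome). One site was gained in both: chromosome 15, 60134659-60134825, 118124 bp from 4933412E24Rik, with a fold of 5.11 in Sod2-/- cells and 2.09 in control, and of 5.25 in rotenone and 3.34 in vehicle. The gain on the high side in Sod2-/- cells, at 63723007-63723254, lay nearest to Gsdmc, a gasdermin gene, with a fold of 4.52 in Sod2-/- cells and 3.31 in control. At the edge of the window, the last strong peak inside on the low side lay 857919 bp from Myc in Sod2-/- cells, 857945 bp in control, 857949 bp in rotenone and 875611 bp in vehicle. The first strong peak outside it on that side lay 1131861 bp away in Sod2-/- cells, 1131734 bp in control, 1131702 bp in rotenone and 1131736 bp in vehicle, so the low edge falls in a stretch with no strong peak.

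In the 100 kb that begin at the start of Myc, Sod2-/- cells had 4 strong peaks, control 8, rotenone 3 and vehicle 5, while peaks of any rank numbered 25 in Sod2-/- cells, 23 in control, 15 in rotenone and 21 in vehicle. From 600 to 1000 kb above, the only strong peak in any library was the rotenone gain at 62871532-62871643.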
